A study of Mus musculus with 65 samples.

Results

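Transcripts of inward rectifier and two-pore potassium channels were examined in 65 single HSD2 neurons of the mouse nucleus of the solitary tract, the brainstem neurons named for the aldosterone-protecting enzyme encoded by Hsd11b2. Of 9 genes listed by name, 8 had values among 11875 genes, and the TASK-1 gene Kcnk3 was not analysed here. The genes were the G protein-gated subunits Kcnj3, Kcnj6 and Kcnj9, the ATP-sensitive pore Kcnj11 with its regulatory subunit Abcc8, and the two-pore channels Kcnk1, Kcnk2, Kcnk3 and Kcnk9. The 33 chow neurons came from male mice of mixed strain fed a standard diet, and the 32 low-sodium neurons from male mice of mixed strain fed a low sodium diet. In both diets a Cre recombinase driven by Hsd11b2 switched on red tdTomato from the Ai9 reporter, and red cells were picked by hand after papain digestion. A cell that once expressed Cre keeps the reporter, and no animal numbers or ages are given. The label of origin is the nucleus of the solitary tract, whereas the isolation protocol names Arc-ME.

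Inward rectifiers pass potassium more easily into the cell than out of it and hold the membrane near rest. GIRK channels are inward rectifiers that open when receptors coupled to Gi/o release G protein beta-gamma subunits. KATP channels pair a pore subunit with a sulfonylurea receptor and close when ATP is plentiful, and two-pore channels carry a steady potassium leak. The leak through TASK channels is reduced by receptors coupled to Gq, among them the angiotensin receptor Agtr1a that HSD2 neurons express.

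All pore-forming members carry the selectivity filter, the short loop whose backbone coordinates potassium, and the coding sequences of the measured ones are shown because they separate the families by which the results are ordered. The coding sequences of GENCODE transcripts on GRCm38 were translated and searched for threonine, then isoleucine, threonine or valine, then glycine, then tyrosine, phenylalanine or leucine, then glycine. Abcc8, which forms no pore, was not searched. Each sequence below is 27 bases of coding strand, 5′ to 3′, and the capitals mark the 3 codons from the first glycine to the second.
Kcnj3, chr2:55437621-55437647, plus strand: gaggccaccatcGGCTATGGCtaccgc
Kcnj6, chr16:94832771-94832797, minus strand: gaaaccaccatcGGTTATGGCtaccgg
Kcnj9, chr1:172326178-172326204, minus strand: gagaccaccatcGGCTATGGGcaccgg
Kcnj11, chr7:46099490-46099516, minus strand: caggtgaccattGGTTTCGGCgggcgc
Kcnk1 first filter, chr8:125995802-126025025 with an intron inside, plus strand: ctctccaccacaGGCTATGGCcacacg
Kcnk1 second filter, chr8:126025323-126025349, plus strand: ctgagcaccatcGGCCTGGGGgactat
Kcnk2 first filter, chr1:189258885-189295606 with an intron inside, minus strand: atcacaaccataGGATTTGGAaacatc
Kcnk2 second filter, chr1:189256575-189256601, minus strand: ctgacgaccattGGATTTGGAgactac
Kcnk9 first filter, chr15:72513031-72546009 with an intron inside, minus strand: atcacaactatcGGATATGGAcatgct
Kcnk9 second filter, chr15:72512713-72512739, minus strand: ttgactactataGGGTTCGGCgatttt

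Each inward rectifier held 1 filter and each two-pore channel held 2, which is the difference that gives the second family its name. The residue between the glycines was tyrosine in Kcnj3, Kcnj6 and Kcnj9 and phenylalanine in Kcnj11. Kcnk1 had tyrosine in the first filter and leucine in the second, Kcnk2 had phenylalanine in both, and Kcnk9 had tyrosine and then phenylalanine. Kcnk1 alone among these had threonine in place of isoleucine before the first glycine of its first filter. Kcnj11 (chr7:46093953-46100764) and Abcc8 (chr7:46104523-46180033) lie next to each other on the minus strand.

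Values were log2(CPM + 1), where CPM is counts per 1000000 reads. The neurons ranged from 50078 to 5319462 reads with a median of 651333, so that 1 read stood for 0.160 to 16.1 CPM. A transcript at 0 could therefore have reached 0.481 CPM in the deepest neuron and 48.3 CPM in the shallowest, taking 3 reads as the limit that a count of 0 allows. All 65 neurons had at least 3 neuronal markers and at least 3 HSD2 neuron markers above 10 CPM, and Hsd11b2 was detected in every neuron. In 36 neurons (19 chow, 17 low sodium) at least 3 markers of 1 non-neuronal cell type exceeded 10 CPM. These were mostly those of astrocytes (25 neurons) or oligodendrocytes (24 neurons). Some markers exceeded 10 CPM in most neurons: Aldoc of astrocytes in all 65, Mbp and Cnp of oligodendrocytes in 53 and 56, and Rarres2 of ependymal cells in 53. The 36 are called neurons with non-neuronal markers below, although the other 29 also held some of these markers. Summed over the listed genes, CPM came to between 754874 and 1147326 in 56 neurons but to between 1393471 and 2170050 in 9 low-sodium neurons. Those 9 high-sum neurons stood apart in several results, which are given with and without them. The labels name no animals, so each diet is 1 sample, the SDs describe the spread between neurons, and no p-values are given.

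Kcnk1, Kcnj9 and Kcnk2 were the transcripts found in most neurons, and Kcnj6 was the one found in fewest. Per kilobase of annotated exon, the mean level was 56.9 ± 51.6 CPM per kb (SD, n = 65 neurons) for Kcnk1, which encodes TWIK-1. The mean level of Kcnj9, which encodes GIRK3, was 28.2 ± 24.9 CPM per kb. That of Kcnk2, which encodes the stretch- and temperature-sensitive channel TREK-1, was 12.2 ± 12.2 CPM per kb. Kcnk1 differed from Kcnj9, and Kcnj9 from Kcnk2, by more than the smaller SD of each pair. Abcc8 followed at 6.58 ± 12.5, Kcnj11 at 6.30 ± 19.3, Kcnj3 at 5.98 ± 9.93, Kcnk9 at 4.18 ± 16.4 and Kcnj6 at 1.60 ± 4.47 CPM per kb. The last 5 neighbouring pairs in this order, beginning with Kcnk2 and Abcc8, differed by less than the smaller SD. Without the 9 high-sum neurons the mean of Kcnk9 was 0.486 CPM per kb and that of Kcnj6 was 0.755 CPM per kb. For comparison, Hsd11b2 averaged 347 CPM per kb over all 65 neurons.

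**Figure D1:**
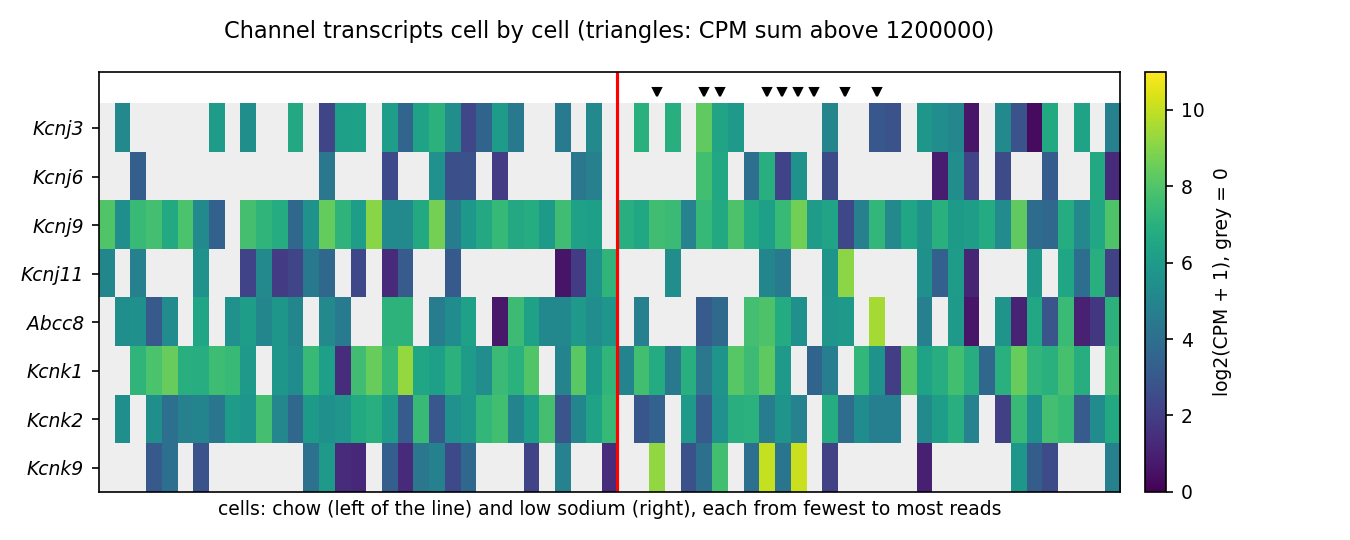
Level of the 8 measured transcripts (rows) in each of 65 neurons (columns), as log2(CPM + 1) by colour with 0 in grey; chow neurons are left of the red line, low-sodium neurons right of it, each diet ordered from fewest to most reads, and triangles mark the 9 high-sum neurons. The rows of Kcnj9, Kcnk1 and Kcnk2 are nearly filled, whereas those of Kcnj6 (23 of 65 neurons), Kcnk9 (30) and Kcnj11 (31) are mostly grey.

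Kcnj9 was the GIRK subunit of nearly every neuron. It was detected in 63 of 65 neurons (96.9%, exact 95% binomial interval 89.3 to 99.6, counting error only), with 10 or more reads in 57 of them. Levels of Kcnj9 in chow neurons ran from 0 through a median of 6.62 to 9.04, and in low-sodium neurons from 2.36 through 6.57 to 8.65. The diets covered nearly the same range, and both neurons without Kcnj9 were chow neurons, in 1 of which a count of 0 allows more than 10 CPM. GIRK3 is thought not to form channels on the surface by itself and to act through partners, so the other subunits are of interest beside it.

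Kcnj3 encodes GIRK1, the subunit that needs a partner to reach the membrane. It was detected in 36 of 65 neurons (55.4%, interval 42.5 to 67.7), and 28 of these held 10 or more reads. Chow neurons ran from 0 through a median of 2.34 to 7.06, with 15 of 33 at 0. Low-sodium neurons ran from 0 through 1.74 to 8.32, with 14 of 32 at 0. Levels above 0 were graded from 0.32 upward in both diets together, with a median of 5.42 over the detected neurons. In 12 of the 29 neurons at 0, a count of 0 allows more than 10 CPM. The exons of Kcnj3 overlap the opposite-strand gene model Gm26794 over 31.1% of their length. Whether reads were counted by strand is not given in the sources used here, so reads of the pair cannot be told apart. The same limit holds for smaller opposite-strand overlaps of Kcnk2 (12.2%), Kcnk1 (8.01%), Kcnj6 (4.98%) and Kcnj9 (4.01%).

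Kcnj6 encodes GIRK2, the subunit that can form channels alone. It was detected in 23 of 65 neurons (35.4%, interval 23.9 to 48.2), 9 of 33 chow and 14 of 32 low sodium, and the median was 0 in both diets. The highest chow neuron reached 5.56 and the highest low-sodium neuron 7.69. Of the 4 highest neurons, all were low-sodium neurons and 3 were high-sum neurons. Mean Kcnj6 was 3.22 ± 3.41 in the 9 high-sum neurons and 1.09 ± 1.82 in the other 56.

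Every neuron with Kcnj3 or Kcnj6 also held Kcnj9, which was found in 63 of all 65 neurons. At 10 CPM or more, and also after thinning to 50000 reads, 1 neuron held Kcnj3 or Kcnj6 without Kcnj9. Kcnj9 was joined by Kcnj3 alone in 20 neurons, by Kcnj6 alone in 7, by both in 16 and by neither in 20. Kcnj5, the other GIRK subunit gene, was not analysed here, so the count with neither concerns only Kcnj3 and Kcnj6. The share of neurons with Kcnj9 and at least 1 other subunit was 66.2% (43 of 65, interval 53.4 to 77.4), 20 of 33 in chow and 23 of 32 in low sodium. Depth limits these counts: with every neuron thinned to 50000 reads, 30 of 65 neurons held Kcnj9 with another subunit and 29 held Kcnj9 with neither. Spearman's rho between Kcnj3 and Kcnj6 over 65 neurons was 0.18, a weak value in sparse data that share depth, scale and preparation.

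Abcc8, which encodes the sulfonylurea receptor SUR1, was found in more neurons than Kcnj11, which encodes the Kir6.2 pore. Abcc8 was detected in 46 of 65 neurons (70.8%, interval 58.2 to 81.4). Chow neurons ran from 0 through a median of 5.18 to 7.56, and low-sodium neurons from 0 through 3.02 to 9.50. The low-sodium neurons thus included both the highest values and more zeros, 11 of 32 against 8 of 33.

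Kcnj11 was detected in 31 of 65 neurons (47.7%, interval 35.1 to 60.5), 7 of them with only 1 or 2 reads. Its chow levels ran from 0 through 0.62 to 7.22, and its low-sodium levels from 0 through 0 to 9.07. Among detected neurons the median was 3.16 in chow and 5.48 in low sodium. Only 1 or 2 reads were held by 6 of the 17 detected chow neurons and by 1 of the 14 detected low-sodium neurons. Of the detected neurons, 11 of 14 in low sodium and 8 of 17 in chow stood at 10 CPM or more. The neuron with the most Kcnj11, low-sodium neuron 50, was a high-sum neuron, as were the 2 neurons with the most Abcc8, low-sodium neurons 47 and 42.

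Both KATP genes were detected together in 26 of 65 neurons (40.0%, interval 28.0 to 52.9), 14 chow and 12 low sodium. Abcc8 was present without Kcnj11 in 20 neurons, Kcnj11 without Abcc8 in 5, and neither in 14. At 10 CPM or more both were present in 14 neurons. Over all 65 neurons these genes had the highest Spearman's rho of any pair of members, 0.33, close to the 0.32 of Kcnj6 with Kcnk9. Over the 56 that were not high-sum it was 0.30, no higher than that of Kcnj6 with Abcc8. The neurons share depth, scale and preparation, and Abcc8 was detected in 26 of the 33 deeper neurons and 20 of the 32 shallower ones, against 17 and 14 for Kcnj11.

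**Figure D2:**
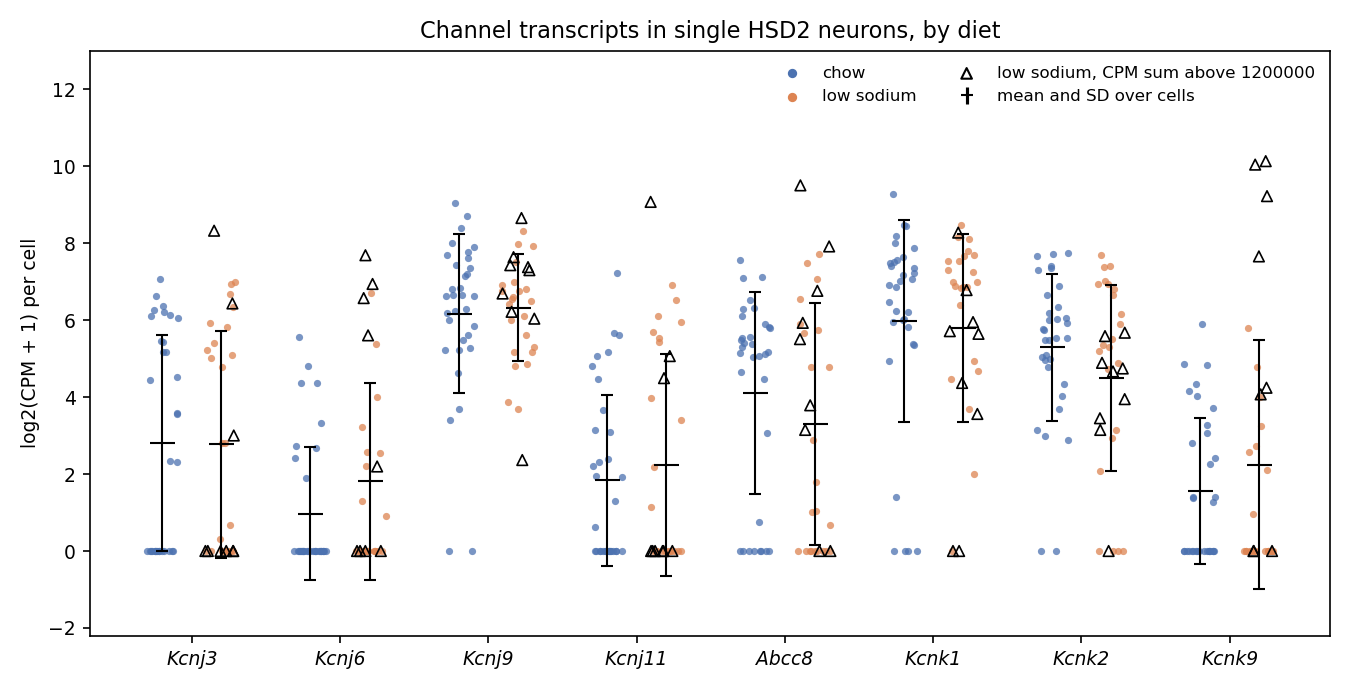
Each point is 1 neuron's log2(CPM + 1), in blue for chow and orange for low sodium, with open triangles for the 9 high-sum low-sodium neurons; black bars give the mean and SD over neurons. The diets overlap for all 8 transcripts, and the 4 highest Kcnk9 points, from 7.66 to 10.13, are triangles.

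Kcnk1 and Kcnk2 were found in nearly every neuron, and Kcnk9 was not. Kcnk1 was detected in 58 of 65 neurons (89.2%, interval 79.1 to 95.6) and held 10 or more reads in 52. Its chow levels ran from 0 through a median of 6.91 to 9.27, and its low-sodium levels from 0 through 6.85 to 8.46. The medians were almost equal, and 7 neurons (4 chow, 3 low sodium) stood below the rest at 0.

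Kcnk2 was likewise detected in 58 of 65 neurons, 31 of 33 chow and 27 of 32 low sodium. Chow neurons ran from 0 through 5.54 to 7.75, and low-sodium neurons from 0 through 5.05 to 7.70. In both chow neurons and 3 of the 5 low-sodium neurons at 0, a count of 0 allows more than 10 CPM. Spearman's rho of Kcnk2 with the reads of a neuron was 0.32, the highest of the members.

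Kcnk1 and Kcnk2 were found together in 52 neurons, and at least 1 of them in 64. The exception, a chow neuron, held no two-pore member. It was the shallowest of all neurons, with 50078 reads, where a count of 0 allows 48.3 CPM.

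Kcnk9 encodes TASK-3, the acid-sensitive leak channel, and had a very uneven level. It was detected in 30 of 65 neurons (46.2%, interval 33.7 to 59.0), 16 chow and 14 low sodium, and 9 of these held only 1 or 2 reads. Chow levels ran from 0 through a median of 0 to 5.91, and low-sodium levels from 0 through 0 to 10.13. The 4 highest were low-sodium neurons 48 (10.13), 42 (10.04), 51 (9.22) and 57 (7.66), and all of them were high-sum neurons. Mean Kcnk9 was 5.04 ± 4.37 in the 9 high-sum neurons and 1.38 ± 1.86 in the other 56, whose highest value was 5.91. The high values were not single reads, since these 4 neurons held between 47 and 352 reads of Kcnk9. Whether the scale of the high-sum neurons or their content set those values was not tested. All 30 neurons with Kcnk9 also held Kcnk2, and 29 of them held Kcnk1, where each of these 2 was found in 58 of 65 neurons.

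**Figure D3:**
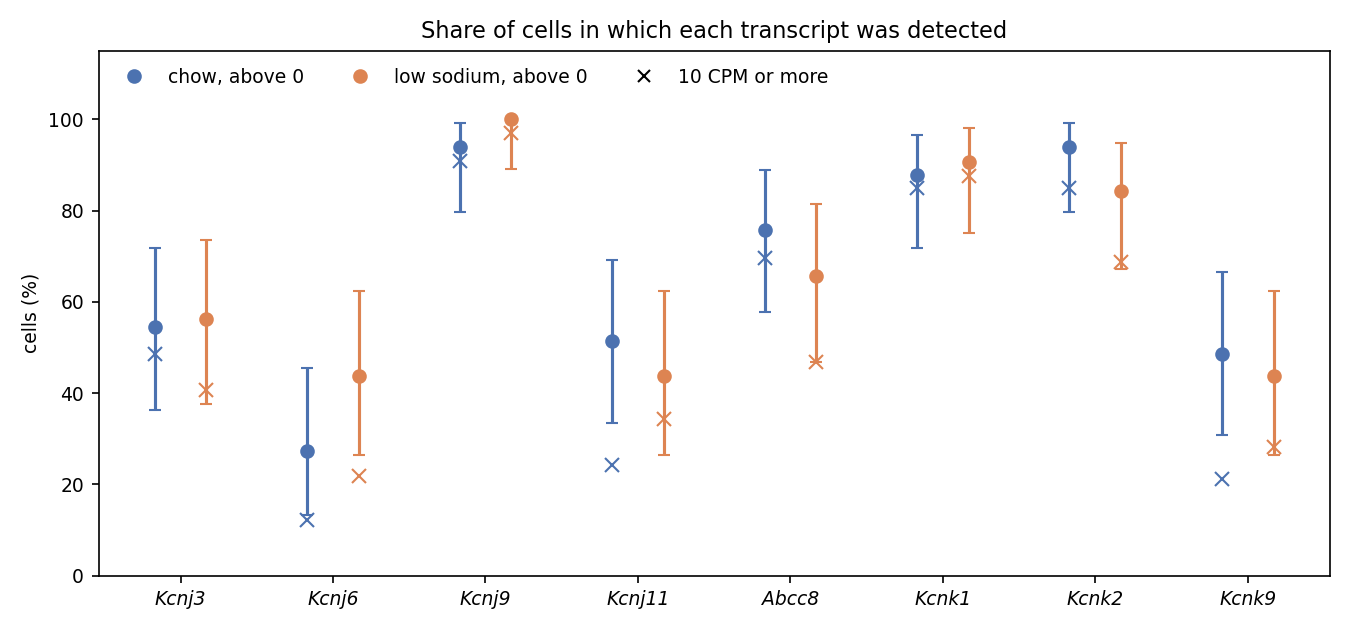
Share of neurons of each diet (blue chow, n = 33; orange low sodium, n = 32) in which a transcript was above 0 (circles, with exact 95% binomial intervals for counting error) or at 10 CPM or more (crosses). The intervals of the diets overlap for every transcript, from Kcnj6 at 27.3% and 43.8% to Kcnj9 at 93.9% and 100%.

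A neuron held between 2 and 8 of the 8 measured transcripts, with a median of 5. All 8 were found in 5 neurons, 3 chow and 2 low sodium. Spearman's rho between members per neuron and reads was 0.34 over 65 neurons. Most pairs of members followed each other weakly. Besides the KATP pair, rho was highest for Kcnj6 with Kcnk9 (0.32), which fell to 0.15 over the 56 neurons without the high-sum ones, and for Kcnj6 with Abcc8 (0.29, and 0.30 without them).

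The diet comparison asks whether sodium restriction, which activates HSD2 neurons, goes with a different supply of these channels. Over all neurons, 4 members had a higher mean in low sodium and 4 a lower one, while 41.5% of all genes were higher. None of the 8 differed by 1 or more on the log2(CPM + 1) scale, which is a 2-fold change, whereas 3.61% of all genes were higher and 6.55% lower by that much. The median difference of the 8 members was 0.055, and that of all genes was -0.12. For all 8 members the difference was below the smaller of the diets' SDs over neurons, and the diets overlapped.

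The lower means were those of Abcc8 and Kcnk2, with Kcnk1 and Kcnj3 near 0. Abcc8 averaged 4.11 ± 2.63 (SD, n = 33) in chow neurons and 3.30 ± 3.15 (n = 32) in low-sodium neurons, so the difference was -0.81. Leaving out low-sodium neuron 47 alone, the highest of all for Abcc8, gave -1.01. Without the 9 high-sum neurons the low-sodium mean was 2.75 ± 2.98 and the difference -1.36. That made Abcc8 the 1 member past the fold, and it was lower, where 2.84% of all genes were higher and 6.27% lower without those neurons. The ratio of mean CPM went the other way for Abcc8, 0.56 on the log2 scale over all neurons, a measure in which the highest neurons weigh most. Kcnk2 averaged 5.30 ± 1.91 in chow neurons and 4.50 ± 2.41 in low-sodium neurons, so the difference was -0.79, or -0.60 without the high-sum neurons. Kcnk2 was -1.38 after thinning to equal depth, -1.24 without the neurons holding non-neuronal markers and -0.36 as a ratio of mean CPM. Among the members, Kcnk2 was thus the 1 transcript whose difference was below 0 in all 12 treatments of the data. These treatments reuse the same neurons, and the median over all genes was often below 0 as well. It was -0.28 after thinning, -0.11 without the neurons holding non-neuronal markers and 0.145 as a ratio of mean CPM.

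Kcnk1 averaged 5.98 ± 2.64 in chow and 5.79 ± 2.44 in low sodium, which differed by -0.18, and by 0.33 without the high-sum neurons. Leaving out any 1 of low-sodium neurons 12, 48 and 50, the 3 without Kcnk1, brought the Kcnk1 difference to 0.0022. Kcnj3 averaged 2.81 ± 2.81 and 2.77 ± 2.96, a difference of -0.045, and 0.27 without the high-sum neurons. In the 29 neurons without non-neuronal markers (14 chow, 15 low sodium) Kcnj3 was -1.61. The sign of the Kcnj3 difference thus depended on which neurons were kept, and leaving out any 1 of 30 single neurons changed it, to at most 0.088.

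The higher means were those of Kcnj6, Kcnk9, Kcnj11 and Kcnj9. Kcnj6 averaged 0.97 ± 1.73 in chow neurons and 1.81 ± 2.56 in low-sodium neurons, which differed by 0.83, and by 0.28 once the high-sum neurons were left out. Kcnk9 averaged 1.55 ± 1.90 and 2.24 ± 3.23, a difference of 0.69 that turned to -0.41 without them. As a ratio of mean CPM, Kcnk9 stood at 3.71 and Kcnj6 at 2.04 on the log2 scale, again the measure in which the highest neurons weigh most. Kcnj11 averaged 1.84 ± 2.22 and 2.23 ± 2.88, a difference of 0.40, which was 0.46 without the high-sum neurons and 1.33 without the neurons holding non-neuronal markers. Kcnj9 averaged 6.17 ± 2.06 and 6.32 ± 1.39, a difference of 0.16, and 0.034 without the high-sum neurons. Leaving out 1 of the chow neurons 12 and 21, those without Kcnj9, turned it to -0.038.

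**Figure D4:**
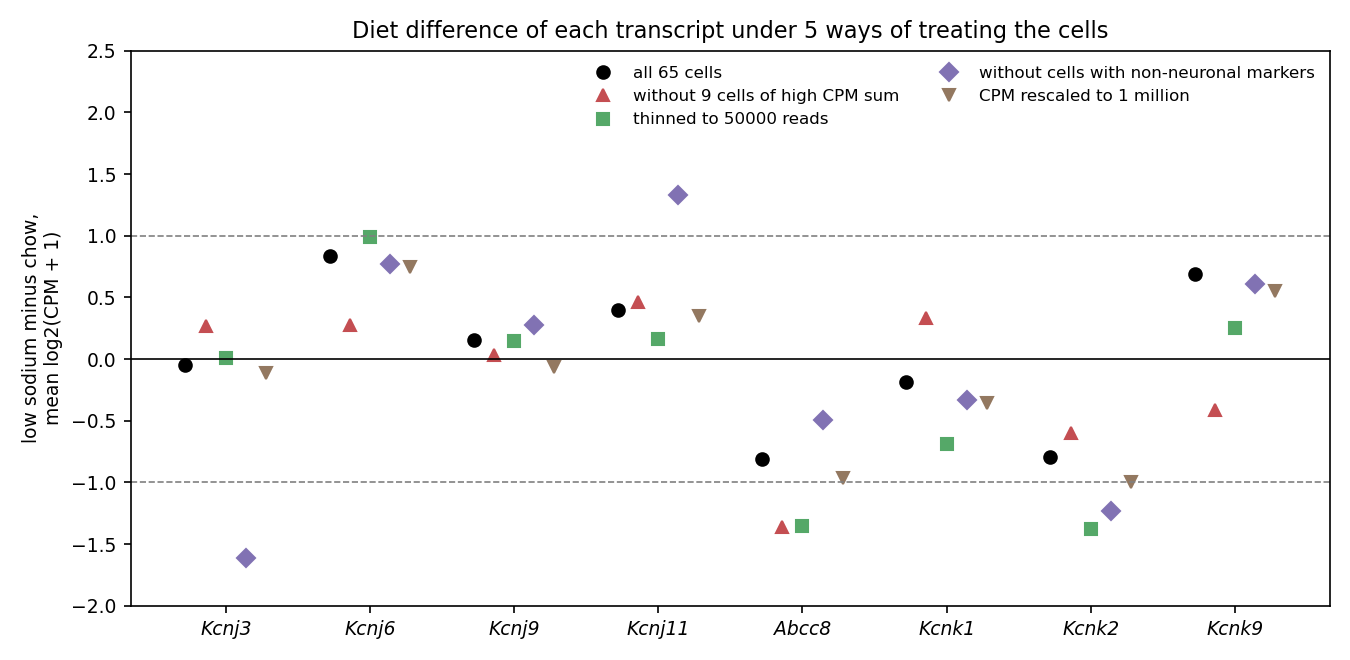
Difference of mean log2(CPM + 1), low sodium minus chow, for each transcript under 5 treatments of the neurons; dashed lines mark a difference of 1 in either direction. Over all 65 neurons (black circles) no transcript reaches a dashed line, and for Kcnk9 the difference changes sign from 0.69 to -0.41 once the 9 high-sum neurons are left out (red triangles).

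Few of the listed relatives of the members had values. Of 12 other inward rectifier genes 5 were measured, and 1 had a higher and 4 a lower mean in low sodium, with a median difference of -0.57 and none past the fold. Of all genes, 3.61% were past it upward and 6.55% downward. Kcnj2, the classical strong rectifier Kir2.1, was detected in 17 neurons. Kcnj10, the Kir4.1 channel of glia, was detected in 15 neurons and averaged 1.89 ± 3.15 in chow and 0.89 ± 2.49 in low sodium. Without the high-sum neurons Kcnj10 was past the fold at -1.09, where 6.27% of all genes were past it downward. All 15 neurons with Kcnj10 were among the 36 with non-neuronal markers, and 14 were among the 25 with astrocyte markers. Kcnj16, a partner of Kir4.1, was detected in 8 neurons, 7 of them among those 25, and Kcnj13 in 8 neurons, 4 of them among those 25. The mean log2(CPM + 1) over the 8 astrocyte markers ran from 0.88 to 8.06 in chow and from 0.91 to 7.15 in low-sodium neurons, with at least 3 above 10 CPM in 14 chow and 11 low-sodium neurons. Of these 8 markers 7 had the higher mean in chow, as Kcnj10 did. Slc1a3 averaged 3.11 in chow and 0.94 in low sodium, Aqp4 averaged 2.03 and 0.75, and Gja1 averaged 1.95 and 0.64. The other means lay closer, at 1.10 and 1.13 for Gfap, 2.60 and 2.53 for Slc1a2, 1.25 and 0.93 for Aldh1l1, 8.76 and 8.35 for Aldoc, and 3.28 and 2.84 for S100b. The part of these markers in the diet difference of Kcnj10 was not tested.

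The members were found in neurons with and without those markers. Kcnj9 was detected in 35 of 36 neurons with non-neuronal markers and 28 of 29 without, Kcnk1 in 32 and 26, and Kcnk2 in 32 and 26. Kcnj6 was detected in 16 of 36 and 7 of 29, Kcnj11 in 20 and 11, and Abcc8 in 27 and 19. Kcnk9 went the other way, in 15 of 36 and 15 of 29. Of 10 other two-pore genes 1 was measured, the TREK-2 gene Kcnk10, in 27 neurons and with a difference of 0.23.

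Several receptors that can open GIRK channels were found in nearly every neuron. Of 33 listed receptors coupled to Gi/o 18 were measured, and 9 had a higher and 9 a lower mean in low sodium, with a median difference of -0.044. Gabbr1, a GABA-B receptor subunit, was found in all 65 neurons at 8.13 ± 0.78 in chow and 8.01 ± 1.07 in low sodium. The cannabinoid receptor Cnr1 was found in 64, the nociceptin receptor Oprl1 in 60 and the glutamate receptor Grm7 in 60. Over all neurons 1 receptor was past the fold, the alpha-2 adrenergic receptor Adra2b, which was found in 16 neurons and stood at 1.09. Beside it, 3.61% of all genes were higher and 6.55% lower by that much. Without the high-sum neurons 2 receptors were past it upward, Adra2b (1.31) and the glutamate receptor Grm4 (1.00, and 0.99 over all neurons). In the other direction 2 were past it without them, Sstr1, a somatostatin receptor (-1.19, and -0.99 over all neurons), and Gabbr2 (-1.23, and -0.98 over all neurons). Of all genes, 2.84% were past the fold upward and 6.27% downward without the high-sum neurons. Gabbr2, the partner that Gabbr1 needs to form a GABA-B receptor, was found in 41 neurons, and it and Grm4 are named because their values were seen.

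Of 18 listed Gi/o and beta-gamma genes 16 were measured, 7 higher and 9 lower, with a median of -0.17. Gnao1, Gnb1, Gnb5 and Gng2 were found in all 65 neurons, with differences between -0.23 and 0.46. Gng4 was past the fold at 1.08, and stood at 0.37 without the high-sum neurons, while Gng12 was past it in the other direction at -1.07 and -1.17. Gnai1, named because its value was seen, stood at 0.98 and was the 1 gene of this list past the fold upward without the high-sum neurons, at 1.07. Of all genes, 3.61% were past the fold upward and 6.55% downward, and without the high-sum neurons 2.84% and 6.27%.

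The genes listed as regulators of GIRK signalling had the highest median of the lists with 5 or more measured genes. The 3 measured receptors coupled to Gq had a higher one, 0.85. Of 13 listed regulators 10 were measured, 7 higher and 3 lower. Their median was 0.81, and 0.31 without the high-sum neurons, beside -0.12 and -0.097 over all genes. Most of them are RGS proteins, which speed the shut-off of G proteins and so the closing of GIRK channels. Rgs4 averaged 5.61 ± 3.24 in chow neurons and 7.14 ± 2.62 in low-sodium neurons, so it differed by 1.53, and by 1.91 without the high-sum neurons. Rgs17 differed by 1.37 and 1.20. Rgs10 (1.07) and Gprin1 (1.04) were the other 2 past the fold and are named because their values were seen, and without the high-sum neurons Rgs10 stood at 1.42 and Gprin1 at 0.14. Over all neurons 4 of 10 regulators were thus past the fold upward, where 3.61% of all genes were. Each of those 4 differences was below the smaller of the diets' SDs over neurons. Without the high-sum neurons 3 of 10 regulators were past the fold upward, beside 2.84% of all genes. The list was chosen with earlier results of these data known, so these counts are a description only. Rgs2, which acts mainly on Gq, stood at -0.97, and -0.70 without the high-sum neurons.

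**Figure D5:**
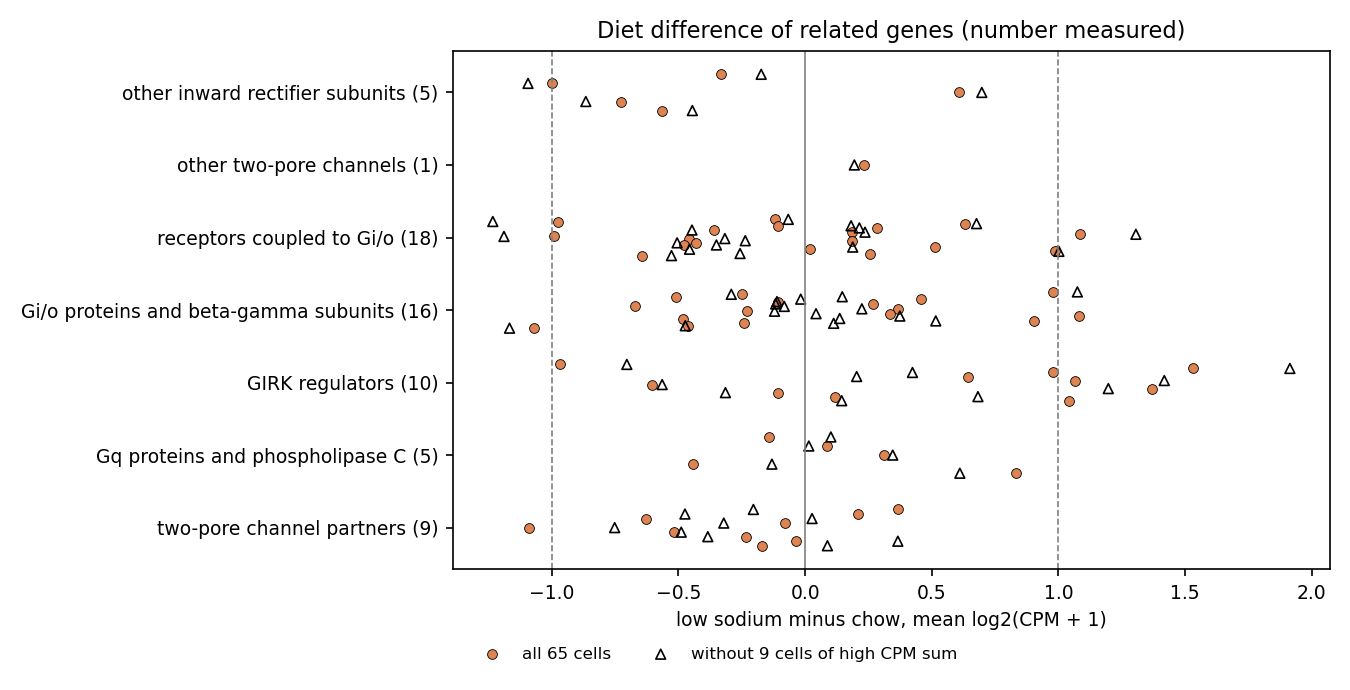
Difference of mean log2(CPM + 1), low sodium minus chow, for each measured gene of 7 lists (rows, with the number measured), over all 65 neurons (filled circles) and without the 9 high-sum neurons (open triangles); height within a row carries no meaning and dashed lines mark a difference of 1. The GIRK regulators reach from -0.97 to 1.53, with 4 of 10 circles past the right dashed line, beside 3.61% of all genes. The lists were chosen with earlier results of these data known.

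Of the receptors coupled to Gq, the kind that closes TASK channels, Agtr1a was found in 63 neurons at 7.05 ± 1.73 in chow and 7.08 ± 2.18 in low sodium. The glutamate receptor Grm5 was found in 58 neurons with a difference of 0.97, which was 0.086 without the high-sum neurons. Of the Gq proteins and phospholipase C genes 5 of 7 were measured, 3 higher and 2 lower, and Gnaq and Plcb4 were found in all 65 neurons. Among 9 partners of two-pore channels, such as the 14-3-3 proteins Ywhab and Ywhaz that help TASK channels leave the endoplasmic reticulum, 2 were higher and 7 lower, with a median of -0.17. Psd, which encodes an exchange factor for the small GTPase Arf6, was the 1 partner past the fold, at -1.09 over all neurons and -0.75 without the high-sum ones. Of all genes, 6.55% were past the fold downward over all neurons.

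The genes that followed each member most closely across neurons were ranked by Spearman's rho over 65 neurons, among 8492 genes and for the 5 members found in at least 33 neurons. For Kcnj3 they were Vps13a (0.50), Dennd4a (0.50) and Mark3 (0.47), and for Kcnj9 they were Mtfp1 (0.42), Tmem246 (0.39) and Gdap1l1 (0.39). For Abcc8 they were Dvl3 (0.60), Cdkal1 (0.56) and Atad2b (0.55). For Kcnk1 they were B9d2 (0.56), Haus5 (0.55) and Mydgf (0.53), and for Kcnk2 they were Rbbp7 (0.52), Impdh2 (0.50) and Samd8 (0.48). No channel gene was among the 15. Of the 15 genes, 7 stayed among the closest 3 without the high-sum neurons, and 1, Haus5 with Kcnk1, did so after thinning.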

How the data were processed

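Poly(A) RNA of 65 hand-picked single neurons was made into Smart-Seq2 and Nextera XT libraries, 1 per neuron, per the labels' protocols. The submitters' processing notes list featureCounts 1.4.6, SAMtools 0.1.19, HISAT2 2.0.5, bcl2fastq and Picard 2.5.0, and the builds mm10 and GRCm38. For settings, annotation, cell filters and the total behind each CPM, the sources used here say nothing. The authors deposited log2(CPM + 1) per gene and neuron for 12015 lines. Of these, 19 were named by serial numbers and 121 shared 60 names and were left out, and each line was above 0 in at least 5 neurons. All positive values lie on steps of 0.01 in log2(CPM + 0.2), so a value carries rounding of up to 0.347%, and equal values recur between neurons. Reads were recovered from the step of the low values (whole within 0.1 of a step for 100% of values up to 20 reads in every neuron), and larger read numbers are approximate.

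Means, SDs and counts were computed with Python 3.11.15, numpy 2.4.6, scipy 1.17.1 and pandas 2.3.3, and the steps were tested on simulated data. Exact intervals are Clopper-Pearson. Exon lengths came from GENCODE on GRCm38. The members, lists and limits were chosen with earlier results of these data known. The text names all members, the 3 genes closest to each member found in at least 33 neurons, and from each list every gene when at most 4 were measured, otherwise the 4 with the highest mean and the 2 with the largest difference; 1 gene that this rule names is not reported here.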

Additional observations from a re-analysis of the deposited data

How the results depend on the processing

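The labels name no animals, and no test was run. No paired analysis was possible because neuron numbers shared by the diets name single cells, which the labels tie to no shared animal. The number of members past the fold was 0 over all neurons, where 3.61% of all genes were higher and 6.55% lower by that much. Without the high-sum neurons these shares were 2.84% and 6.27%, and for the other settings they were not computed. The number of members past the fold was 3 with a pseudocount of 0.1 CPM, without the neurons holding non-neuronal markers or as a log2 ratio of mean CPM, and 2 after thinning to 50000 reads. It was 1 without the high-sum neurons, with both of these together (a choice made after seeing the data) or as a difference of medians, 0 to 1 when single neurons were left out, and 4 at a limit of 0.58. The difference of Kcnk9, 0.69 over all neurons, was 3.71 as a log2 ratio of mean CPM. By medians, 0 members were higher in low sodium, beside 30.2% of all genes. Kcnj6 and Kcnk9 could not be, since their medians were 0 in both diets. Thinning lowered the share of neurons with Kcnj3 to 40.0%, Kcnj6 to 20.0%, Kcnj11 to 29.2%, Abcc8 to 55.4%, Kcnk2 to 70.8% and Kcnk9 to 23.1%. At 10 CPM or more the shares were 16.9% for Kcnj6, 29.2% for Kcnj11, 76.9% for Kcnk2 and 24.6% for Kcnk9. Shares for pairs, at 10 CPM or more and then thinned, were 7.69% and 12.3% for Kcnj3 with Kcnj6, 16.9% and 20.0% for Kcnj6 with Kcnj9, and 21.5% and 20.0% for Kcnj11 with Abcc8, and Kcnj3 with Kcnj9 thinned was 38.5%. Without length correction 2 members changed place in the order of levels. Of the 15 closest genes 7 were kept without the high-sum neurons and 1 after thinning. The other 164 values moved by less than the smaller of the diets' SDs over neurons (differences), stayed within the counting interval (shares) or within 1.5 times (counts).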
